A study of Mus musculus with 18 samples.

Results

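Knockdown of the transcription factor IRF3 was compared with a control hairpin in cultured fat cells that had received no lipopolysaccharide. The comparison uses 6 of the 18 libraries of the series, chosen by their labels: 3 in which differentiated 3T3-L1 adipocytes carried a short hairpin RNA against Irf3 (shIrf3) and 3 in which they carried one against luciferase (shLuc), a firefly gene with no mouse counterpart. 3T3-L1 is a mouse fibroblast line that is turned into adipocytes in culture. All cells were at passage 15, and the hairpins were delivered to mature adipocytes by lentivirus over 6 days. Whether cells without LPS were kept for the further 6 days that the treated cells had is not given in the sources used here. Each group thus shares the cell line, the vector type and the infection, and the groups differ in the hairpin. Results are set beside 2 other comparisons with 3 libraries a group that share no library with it, namely shIrf3 with LPS against shLuc with LPS (a further 6 days with lipopolysaccharide) and a vector labelled as overexpressing Irf3 (Irf3_2D) against an EGFP vector. Separate cultures are not named in the labels. The p-values thus cover only library-to-library spread, part of which may be technical.

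IRF3 is a constitutively present transcription factor of innate immunity. Receptors for viral nucleic acid, and TLR4 when it binds the bacterial cell wall component lipopolysaccharide, lead to its phosphorylation by the kinase TBK1, after which it enters the nucleus and switches on type I interferon and other antiviral genes. Adipocytes carry TLR4 and store and release fat, and inflammatory signalling in them is known to lower insulin-dependent glucose uptake. The cells of the main comparison had received no lipopolysaccharide.

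RNA was counted over 27473 gene models that carry UCSC identifiers on mouse build mm9, of which 14404 passed the low-count filter in these 6 libraries. The files used here do not pair the identifiers with gene symbols: 0 of the 27473 occurred in either gene name table. Gene models are therefore given by identifier, or by position alone, and neither the level of Irf3 itself nor that of adipocyte markers is analysed here. The knockdown and the cell type thus rest on the labels.

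The shLuc libraries were less alike than the shIrf3 libraries. Total counts ran from 24026711 to 34368259 over the 6 libraries. The median over gene models of the SD of log2 CPM, the count scaled to library depth, was 0.18 among the 3 shLuc libraries and 0.08 among the 3 shIrf3 libraries. On the first principal component, which held 39.0% of the variance, the shIrf3 libraries lay between -19.9 and -13.4, shLuc replicates 1, 2 and 3 at 0.05, 32.2 and 16.3. All 3 shLuc libraries thus lay on one side of the shIrf3 libraries, at unequal distances. CPM values here are relative to the counts outside chromosome M and were scaled by the trimmed mean of M values (TMM) of edgeR.

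Mitochondrial counts set shLuc replicates 1 and 2 apart. Chromosome M is the mitochondrial genome, and its gene models made up 14.2%, 2.88% and 5.19% of the counts of shLuc replicates 1, 2 and 3, and 6.53%, 7.17% and 6.64% in shIrf3 replicates 1, 2 and 3. The 3 shIrf3 shares lay inside the range of the shLuc shares (shIrf3 minus shLuc -0.627 percentage points, exact permutation p = 1, two-sided, where 3 against 3 cannot go below 0.1). Without shLuc replicate 1, the library with the highest share, the difference was 2.75 points with no overlap. The exact permutation p was then 0.1, the lowest that 3 against 2 libraries can give. Most of the gap between the control libraries came from the first 2 of the chromosome M gene models. The first (positions 70 to 852) stood at 20301, 231 and 1777 CPM in shLuc replicates 1, 2 and 3, and at 2354, 2772 and 2173 CPM in the shIrf3 replicates. The second (1094 to 3703) stood at 118396, 5045 and 26704 CPM in shLuc and at 29276, 36546 and 30567 CPM in shIrf3. Replicate 1 was thus 87.9-fold and 23.5-fold above replicate 2 in these control libraries, against 1.25-fold to 2.19-fold for the other 5 that were tested. Ribosomal RNA had been depleted before sequencing, and its part in this gap was not tested.

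**Figure D1:**
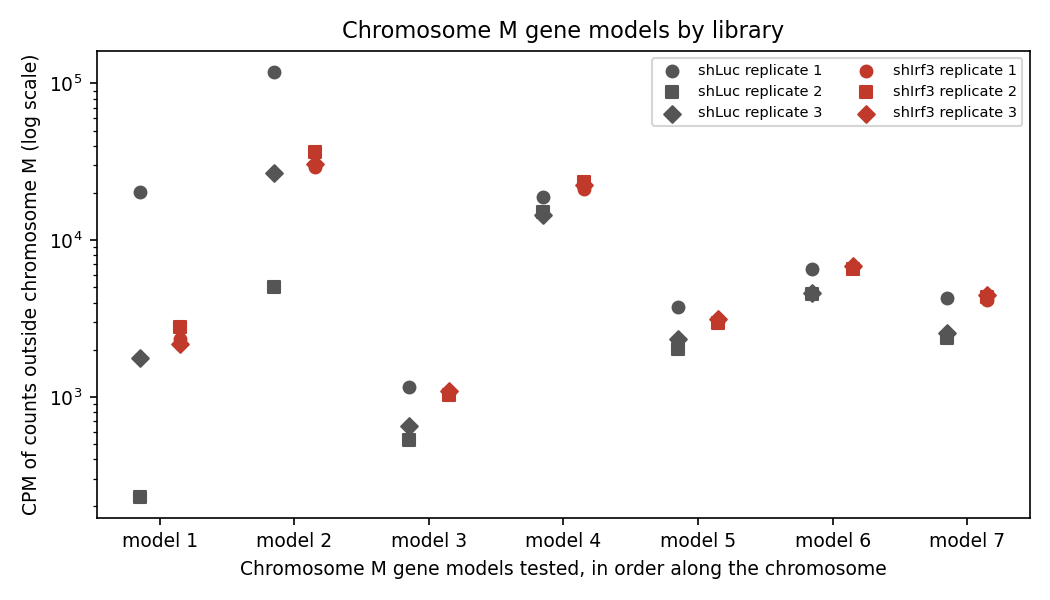
CPM (log scale) of the 7 chromosome M gene models tested, numbered along the chromosome, in each shLuc library (grey) and each shIrf3 library (red). The grey points of models 1 and 2 spread from 231 to 20301 and from 5045 to 118396 CPM, whereas the red points of each model lie close together.

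The other 5 chromosome M gene models were tighter, and none of the 7 was called with all 6 libraries. The model at positions 5327 to 6938 had 18946, 15114 and 14434 CPM in shLuc replicates 1, 2 and 3 and 21348, 23469 and 22437 CPM in the shIrf3 replicates. The shIrf3 values were all above the shLuc values, with a log2 change of 0.47 ± 0.14 (SE; edgeR adjusted p = 0.1002). Values did not overlap between groups in 25.1% of all gene models tested. The model at 3849 to 4933 had 1160, 529 and 647 CPM in shLuc and 1082, 1031 and 1085 CPM in shIrf3, so that shLuc replicate 1 lay above all shIrf3 libraries and the other control libraries below them (log2 fold change 0.45, edgeR adjusted p = 0.467). Without shLuc replicate 1 these 5 models were called higher, with log2 fold changes from 0.49 to 0.87 and edgeR adjusted p from 0.000982 to 0.0145, while models 1 and 2 were not (0.522 and 0.467). That fit called 938 of all 14626 gene models tested higher, against 226 of 14404 with all 6 libraries. Without shLuc replicate 2 none of these 7 models was called.

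Among gene models outside chromosome M with a mean of at least 20 CPM, 2 were far higher in shLuc replicate 1 than in any other library. Only that library was searched in this way, and the 2 were singled out after their values were seen. A 21-exon model on chromosome 9 (123276058 to 123371782) stood at 45833 CPM in shLuc replicate 1, which is 4.36% of that library's counts outside chromosome M, at 1182 and 544 CPM in shLuc replicates 2 and 3, and at 869, 527 and 538 CPM in the shIrf3 replicates. A 4-exon model on chromosome 16 (35966839 to 35983316) stood at 918 CPM there and between 8.70 and 19.5 CPM in the other 5 libraries. Their fitted log2 fold changes of -4.62 and -4.69 were the lowest of all gene models tested, had standard errors of 2.09 and 2.21, and were not called (edgeR adjusted p = 0.372 and 0.389). These values describe 1 library and not the knockdown.

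Knockdown was accompanied by modest changes in both directions. Of 14404 gene models tested, 226 rose (1.57%) and 204 fell (1.42%), together 2.99%, in the quasi-likelihood F test of edgeR at a Benjamini-Hochberg adjusted p under 0.05. Risen gene models had a median log2 fold change of 0.52 and fallen ones of -0.68, where that of all tested was -0.02. All 430 had shLuc and shIrf3 values that did not overlap, as did 25.1% of all gene models tested. Changes under 1.5-fold made up 133 of the 226 that rose and 77 of the 204 that fell. At least 2-fold changes were called for 35 higher gene models (0.243%) and 52 lower ones (0.361%), and 9 and 8 of these exceeded 4-fold.

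The count of calls moved strongly with single libraries. Without shIrf3 replicates 1, 2 and 3 in turn 14, 19 and 21 gene models were higher and 17, 22 and 37 lower, and dropping shLuc replicate 3 left 14 and 22. Dropping shLuc replicate 1 instead gave 938 and 571, and dropping shLuc replicate 2 gave 640 and 432. None of the 430 changed direction in any of these 6 fits. As their values did not overlap between groups, leaving out a library could hardly reverse them, so this is no further support. Among the gene models that fell, the lowest shLuc value, the one nearest to the knockdown values, belonged to replicate 1 in 61.3%, to replicate 3 in 27.0% and to replicate 2 in 11.8%, where the shares among gene models not called were 37.5%, 22.5% and 40.1%. Among those that rose, the highest shLuc value belonged to replicates 1, 3 and 2 in 50.9%, 22.1% and 27.0%. Shares of the highest shLuc value among gene models not called were not computed, so these cannot be called particular to the rise.

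Among the knockdown libraries, replicate 1 was the farthest from the controls most often. Of the 204 gene models that fell, 75.5% had their lowest shIrf3 value in replicate 1, 8.33% in replicate 2 and 16.2% in replicate 3. Of the 226 that rose, 53.5% had their highest shIrf3 value in replicate 1. Among the gene models not called, replicate 1 held the lowest shIrf3 value in 39.9% and the highest in 32.9%.

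**Figure D2:**
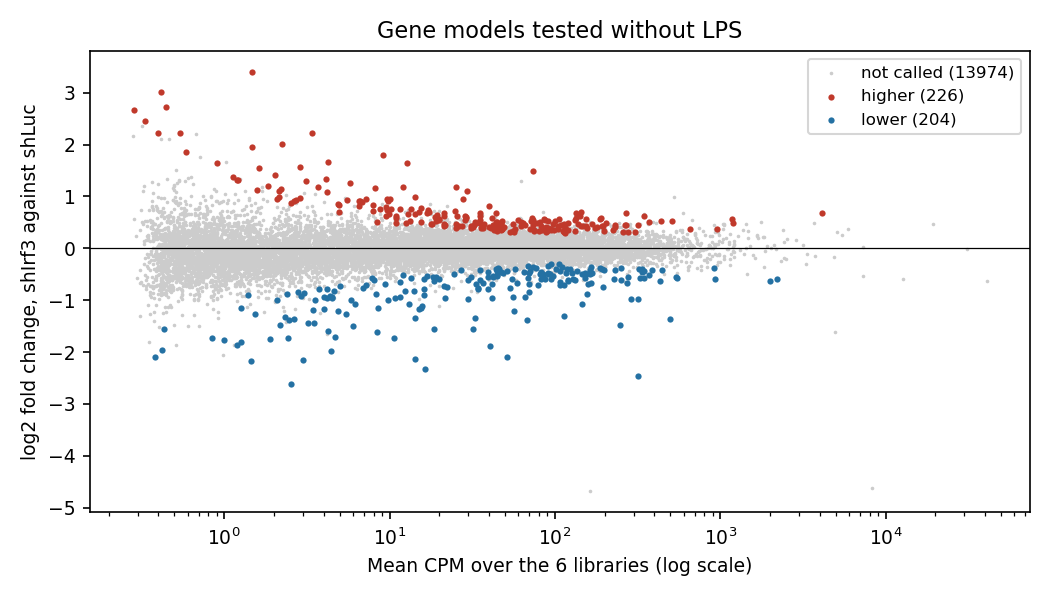
Log2 fold change of shIrf3 against shLuc (vertical) and mean CPM over the 6 libraries (horizontal, log scale) of the 14404 gene models tested, with the 226 that rose in red and the 204 that fell in blue. Called changes narrow as the level grows, and the lowest grey points, near -4.6, are the pair of gene models that were high in shLuc replicate 1.

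Large changes were mostly found among gene models with few reads. Of 1737 tested with a mean of at most 1 CPM, 8 rose and 5 fell, each of them at least 2-fold. Between 1 and 10 CPM 47 of 3651 rose and 50 fell, and 22 and 27 of these changed at least 2-fold. Between 10 and 100 CPM 117 of 6654 rose and 89 fell, and 5 and 15 did so at least 2-fold. Above 100 CPM 54 of 2362 rose and 60 fell, and the fall was at least 2-fold for 5, whereas 0 rose that much. At least 2-fold calls above 100 CPM were thus all falls. How the power of the test depends on the level was not tested.

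In structure, the gene models that fell were shorter than those that rose. Their median exon length was 2823.5 bases with 8 exons, against 3819 bases with 10.5 exons for those that rose and 3338 bases with 9 exons over all tested. Single-exon models made up 1.33% of those that rose, 3.92% of those that fell and 4.68% of all tested. Exons on both strands were listed for 9.29% of those that rose and 9.31% of those that fell, against 9.16% of all tested. The kit does not mark strand, so the counts of such models can hold reads of overlapping genes. These are descriptions, with no test.

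The calls were spread over the genome. Every numbered chromosome and X held gene models that rose and gene models that fell, and of the 3 gene models tested on Y and the 7 on M 0 were called. The share called ran from 2.05% of 1172 on chromosome 11 to 4.53% of 552 on chromosome 13, with 4.20% of 500 on chromosome 19 and 3.97% of 705 on chromosome 3. Chromosome 9 held 16 that rose and 7 that fell, and chromosome 16 held 4 and 9.

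Of the gene models that rose at least 2-fold with exons on 1 strand, uc009ocg.2 had the highest level in the higher group. The rule also asked that values not overlap between groups, here and for the gene models named below. Such separation is thus part of the choice and not a result. The model uc009ocg.2 lies on the plus strand of chromosome 9 (7272514 to 7283333, 10 exons, 2675 bases of exon). Its level was 42.5, 42.0 and 32.1 CPM in shLuc replicates 1, 2 and 3 and 118.5, 110.8 and 97.3 CPM in the shIrf3 replicates. All 3 knockdown libraries stood at more than the highest control library, with means of 38.9 ± 5.87 and 108.9 ± 10.8 CPM (SD, n = 3), a 2.80-fold difference and a log2 change of 1.48 ± 0.12 (SE; edgeR adjusted p = 0.00173). Per kilobase of exon the means were 14.5 in shLuc and 40.7 in shIrf3. The nearest gene models tested, 65.5 kb before it and 61.1 kb after it, had log2 fold changes of -0.05 and -0.42 and were not called (edgeR adjusted p = 0.882 and 0.205).

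The second, uc007wgn.1, lies on the minus strand of chromosome 15 (74875445 to 74879260, 4 exons, 857 bases of exon). Its level was 23.4, 17.4 and 15.4 CPM in the shLuc replicates and 38.3, 40.2 and 42.1 CPM in the shIrf3 replicates. The knockdown values were close together and all above the control values, with means of 18.8 ± 4.15 and 40.2 ± 1.92 CPM (SD, n = 3), a 2.14-fold difference and a log2 change of 1.10 ± 0.14 (SE; edgeR adjusted p = 0.00703). Per kilobase of exon the means were 21.9 and 46.9. The nearest gene model before it, 47.1 kb away, went from 17.9 to 26.6 CPM (log2 fold change 0.57, edgeR adjusted p = 0.0795). The call of uc007wgn.1 ended without shLuc replicate 3, at a log2 fold change of 0.98 (edgeR adjusted p = 0.0555).

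Of the gene models that fell, uc007yza.2 had the highest level under the same rule. It lies on the plus strand of chromosome 16 (32608982 to 32632880, 19 exons, 5546 bases of exon). Its level was 607, 838 and 706 CPM in the shLuc replicates and 252, 293 and 288 CPM in the shIrf3 replicates. Every knockdown library lay under every control library, at 38.7% of the control mean (716.9 ± 116.2 to 277.7 ± 22.1 CPM, SD, n = 3), for a log2 change of -1.37 ± 0.12 (SE; edgeR adjusted p = 0.00196). Per kilobase of exon it stood at 129.3 in shLuc and 50.1 in shIrf3. The next gene model, 11.8 kb further on, had means of 78.3 and 73.2 CPM and was not called (edgeR adjusted p = 0.610).

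The other, uc009kic.1, showed the larger fall. It lies on the plus strand of chromosome 7 (147949731 to 147960876, 9 exons, 1736 bases of exon). Its level was 586, 535 and 502 CPM in the shLuc replicates and 68.9, 109.8 and 116.3 CPM in the shIrf3 replicates, with shIrf3 replicate 1 the lowest. The groups did not overlap, and the knockdown mean was 18.2% of the control mean (541 ± 42.5 to 98.3 ± 25.7 CPM, SD, n = 3), for a log2 change of -2.46 ± 0.19 (SE; edgeR adjusted p = 0.00295). Per kilobase of exon it went from 311.7, rank 161 among the control levels of all gene models tested, to 56.6. Both neighbours stood under 2 CPM and were not called (edgeR adjusted p = 0.962 and 0.834). The calls of uc009ocg.2, uc007yza.2 and uc009kic.1 held in every alternative run for them, with log2 fold changes from 1.36 to 1.62, from -1.46 to -1.23 and from -2.60 to -2.26.

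**Figure D3:**
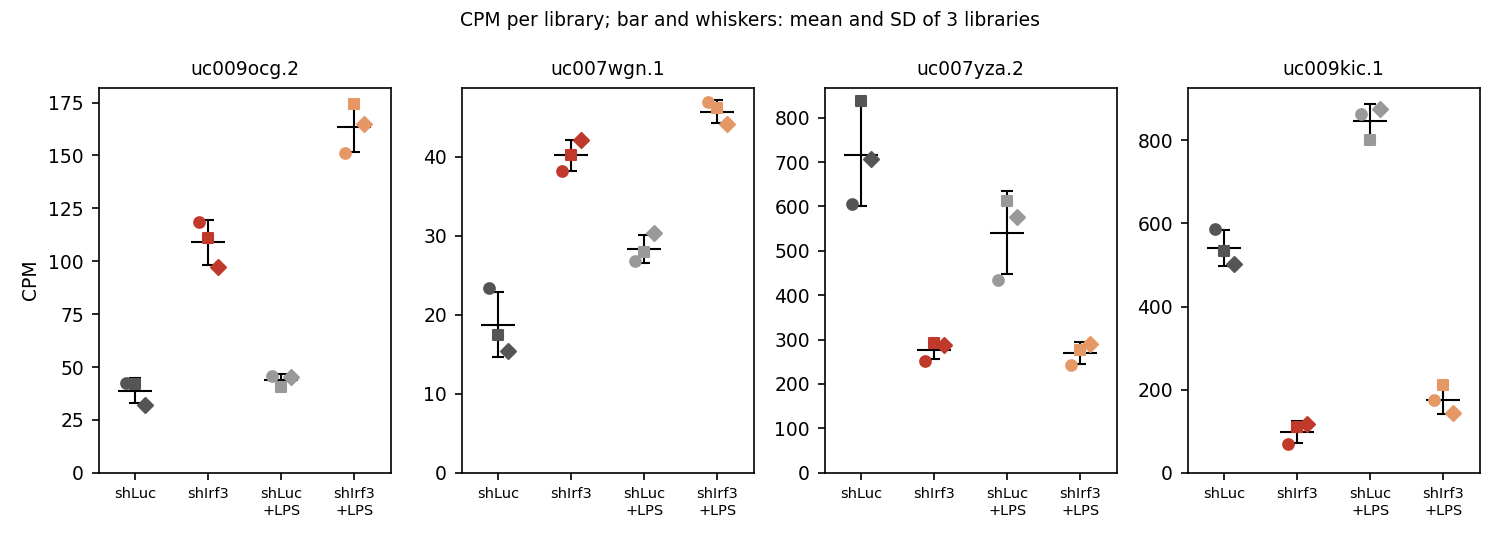
CPM of the 4 named gene models in each library of shLuc, shIrf3 and both groups under LPS, with the mean and SD of 3 libraries; circles, squares and diamonds are replicates 1, 2 and 3, and the libraries with and without LPS were scaled separately. Both models on the left are higher in shIrf3 than in shLuc with and without LPS, and both on the right are lower.

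Neighbouring gene models fell together at several places. Among gene models tested, taken in order along each chromosome, 29 of the 204 that fell (14.2%) had a direct neighbour that also fell, in 12 runs, and 14 of the 226 that rose (6.19%) had one that also rose, in 7 runs. Over all 14372 gene models in that order, called or not, 2.78% had a direct neighbour that fell and 3.12% one that rose. Of the neighbouring pairs that fell, 8 overlapped in position, and 0 of those that rose did. Overlapping models without strand can share reads, so such pairs are not independent counts. The 4 runs with 3 or more members, 13 gene models in all, consisted of gene models that fell.

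The longest run held 4 gene models on chromosome 4 between 115146395 and 115320310. The first, whose exons lie on both strands, stood at 6.13, 11.2 and 9.26 CPM in the shLuc replicates and at 3.12, 2.80 and 3.44 CPM in the shIrf3 replicates (log2 fold change -1.50 ± 0.22, SE, edgeR adjusted p = 0.0110). The following pair begin at the same base, and had 2.93 ± 0.533 and 3.34 ± 0.117 CPM in shLuc against 0.862 ± 0.185 and 1.32 ± 0.433 CPM in shIrf3 (SD, n = 3), log2 fold changes of -1.75 and -1.32. The fourth, on the minus strand, was far more abundant, at 116, 158 and 128 CPM in shLuc and 77.1, 82.4 and 85.4 CPM in shIrf3 (log2 fold change -0.72 ± 0.11, SE, edgeR adjusted p = 0.0130). In each of the 4 all knockdown libraries lay below all control libraries, as in every gene model that fell. The 3 at a low level had the larger fold changes.

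On chromosome 2, 3 gene models between 172919110 and 172984754 fell. The first pair, which overlap in position, went from 12.6 ± 2.92 to 4.13 ± 0.538 CPM and from 6.36 ± 1.73 to 2.09 ± 0.175 CPM (SD, n = 3), log2 fold changes of -1.61 and -1.59. The last, with 8 exons on the plus strand, stood at 161, 213 and 223 CPM in the shLuc replicates and at 70.7, 98.9 and 114 CPM in the shIrf3 replicates, for a log2 change of -1.07 ± 0.19 (SE; edgeR adjusted p = 0.0345). Its highest knockdown library thus lay under its lowest control library, as in every gene model that fell.

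On chromosome 1, 3 gene models between 195033919 and 195170072 fell. A 30-exon model on the plus strand went from 47.2 ± 13.9 to 18.5 ± 1.26 CPM (SD, n = 3), for a log2 change of -1.35. Within its span, on the minus strand, a 7-exon model went from 203.7 ± 28.4 to 128.3 ± 4.95 CPM and a 2-exon model from 381 ± 89.6 to 193.2 ± 25.1 CPM, log2 fold changes of -0.67 and -0.98. The control libraries varied more than the knockdown libraries for all 3.

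On chromosome 6, 3 gene models between 115084920 and 115440419 fell. The first, with 14 exons, went from 85.9 ± 9.79 to 52.97 ± 1.13 CPM (SD, n = 3) and the second, with 5 exons on the minus strand, from 17.9 ± 1.39 to 8.52 ± 0.600 CPM, log2 fold changes of -0.70 and -1.07. The second lies within the span of the first, so this pair can share reads. The last, with 9 exons, stood at 242, 287 and 256 CPM in the shLuc replicates and at 187, 197 and 207 CPM in the shIrf3 replicates. Its log2 change of -0.41 ± 0.09 (SE; edgeR adjusted p = 0.0361) was the smallest in size of these 13.

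**Figure D4:**
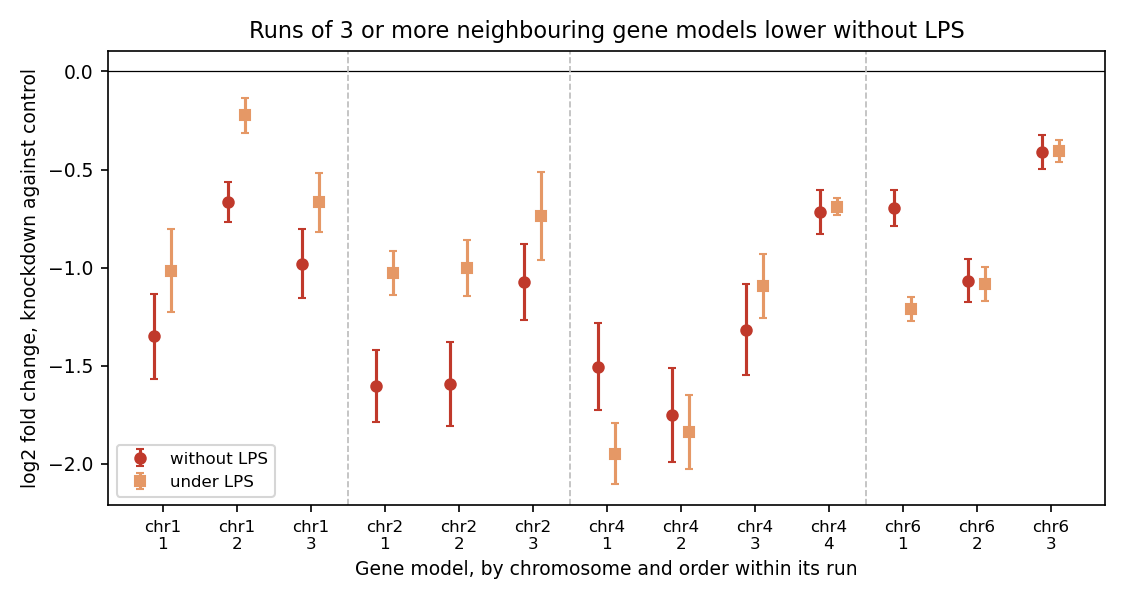
Log2 fold change of knockdown against control, with its standard error, for the 13 gene models in runs of 3 or more neighbours that fell without LPS (circles), and for the same gene models under LPS (squares). All points lie below 0, from -1.95 to -0.22.

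The same gene models were then read in the LPS-treated libraries, none of which enters the comparison above. Of the 226 that rose, 222 were tested there, and 187 were also higher in shIrf3 with LPS than in shLuc with LPS, 0 lower and 35 not called, against 10.3% of all gene models tested that were higher in that comparison. Of the 204 that fell, all were tested, and 149 were also lower, 0 higher and 55 not called, against 8.94%. The median log2 fold change there was 0.48 for the first group (0.52 without LPS) and -0.52 for the second (-0.68 without LPS). Of those that fell, 82.4% had a larger change without LPS than with it, and of those that rose 60.8%. Gene models chosen because they passed a threshold in one set of libraries can be larger there by that choice alone. The hairpins and the control vector are the same in both comparisons, so effects of the hairpin other than on Irf3 cannot be told apart from those of the knockdown.

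The 4 named gene models kept their direction under LPS. So did 98.6% of the 222 risen gene models tested there and 96.6% of the 204 fallen ones. The level of uc009ocg.2 was 45.8, 40.5 and 45.4 CPM in the shLuc libraries with LPS and 151, 174 and 165 CPM in the shIrf3 libraries with LPS (log2 fold change 1.90 ± 0.06, SE, edgeR adjusted p = 3.61e-11). For uc007wgn.1 it was 26.8, 28.0 and 30.3 against 46.9, 46.1 and 44.2 CPM, a 1.61-fold difference where it was 2.14-fold without LPS. The fall of uc007yza.2 was from 540.9 ± 93.8 to 269.7 ± 24.98 CPM (SD, n = 3), and that of uc009kic.1 from 846.2 ± 40.2 to 176.1 ± 34.0 CPM, log2 fold changes of -1.005 and -2.26 (edgeR adjusted p = 0.00575 and 0.000105). In none of the 4 did the groups overlap under LPS. The share of all gene models without overlap under LPS is not given here, so this cannot be called particular to the 4. Of the 13 gene models in the 4 longer runs, 11 were called lower under LPS too, against 73.0% of all 204 that fell. The other two were the 7-exon model on chromosome 1 (log2 fold change -0.22, edgeR adjusted p = 0.112) and the 8-exon model on chromosome 2 (-0.74, edgeR adjusted p = 0.0995).

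Whether the effect of the hairpin differed with LPS was tested as an interaction over the 12 libraries of the 4 groups. Of 15043 gene models 1 was called (0.00665%), and 880 had an unadjusted p under 0.05 in edgeR. A share near 0.05 would fall under that p with no difference at all, so such counts are not read as further differences. DESeq2 called 18 and limma-voom 0, with 901 at an unadjusted p under 0.05 in the latter. Without shLuc replicates 1 and 2 in turn 15 were called each time, and leaving out shIrf3 replicate 2 gave 1 call. Leaving out shLuc replicate 3, or either of the other two shIrf3 libraries, gave 0, with 702 to 966 gene models at an unadjusted p under 0.05 in edgeR. The gene model called has 6 exons on chromosome 2 (32240157 to 32243259) and is given by position because it was found by this test. Its level was 0.321, 0.623 and 0.366 CPM in the shLuc replicates and 1.65, 1.27 and 1.23 CPM in the shIrf3 replicates, and from 136 to 178 CPM in the 6 libraries with LPS, where the highest shIrf3 value, 156.5 CPM, lay just below the lowest shLuc value, 156.9 CPM. It rose with knockdown without LPS (log2 fold change 1.64 ± 0.31, SE, edgeR adjusted p = 0.0272) and had a log2 fold change of -0.14 with LPS (edgeR adjusted p = 0.122), an interaction of -1.80 ± 0.26 (SE; edgeR adjusted p = 0.0440). Its own call held in 6 of 15 alternatives and ended in 9, with the interaction between -2.15 and -1.59 and adjusted p from 6.7e-05 in DESeq2 to 0.422 in limma-voom. It ended without shIrf3 replicates 1, 2 and 3 and without shLuc replicate 3 (edgeR adjusted p = 0.252, 0.0887, 0.110 and 0.232). The 12 libraries share 1 estimate of the spread, a biological coefficient of variation of 0.0907, where it was 0.116 in the 6 libraries without LPS, so an adjusted p just under the threshold is to be read with that in view. For the 4 named gene models the interaction ran from -0.43 to 0.39, with edgeR adjusted p from 0.758 to 0.977.

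Gene models that fell with knockdown were also mostly lower in the cells labelled as overexpressing Irf3. Of the 202 that were tested in that arm, 168 (83.2%) had a log2 fold change below 0 there, against 46.5% of all gene models tested in both, and 39 were called lower and 0 higher, against 0.639% of all gene models tested that were lower in that arm. Without Irf3_2D replicate 2 that arm had 472 higher and 549 lower calls in place of 113 and 89, and of the 202 gene models 172 were then below 0. Of these 202, 91 were then called lower, against 3.86% of all, and 7 higher, against 3.32%. The median log2 fold change of the 202 was -0.42 there and -0.67 with knockdown. The 39 made up 19.1% of the gene models that fell with knockdown and 43.8% of the 89 lower in the overexpression arm, and 16 of them were at least 2-fold lower in both. Both arms were transduced with lentivirus, and the control vectors differed.

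For the gene models that rose with knockdown the overexpression arm gave less. Of 219 tested there, 153 (69.9%) were above 0, against 53.5% of all, with a median log2 fold change of 0.14. Of these 219, 1 was called higher and 1 lower, against 0.811% and 0.639% of all gene models tested in that arm. With Irf3_2D replicate 2 left out, 16 of 223 were called higher and 11 lower, against 3.32% and 3.86%. The one called lower was uc009ocg.2, at 74.8 ± 3.46 CPM with EGFP and 40.6 ± 5.15 CPM with Irf3_2D (SD, n = 3; log2 fold change -0.88 ± 0.13, SE, edgeR adjusted p = 0.0196), opposite to its rise with knockdown. With shLuc, scaled in a separate fit, uc009ocg.2 had a mean of 38.9 CPM, below that with EGFP. Each of its changes is thus relative to a different control level. Unlike uc009ocg.2, uc009kic.1 was lower in both arms. It stood at 399.7 ± 72.4 CPM with EGFP and 87.2 ± 3.33 CPM with Irf3_2D (log2 fold change -2.20 ± 0.16, SE, edgeR adjusted p = 0.00172). For uc007yza.2 the values were 921.1 ± 244.6 and 454.7 ± 114.9 CPM (edgeR adjusted p = 0.0907, and 0.00791 without Irf3_2D replicate 2). For uc007wgn.1 they were 25.9 ± 5.77 and 26.7 ± 4.21 CPM (edgeR adjusted p = 0.974).

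**Figure D5:**
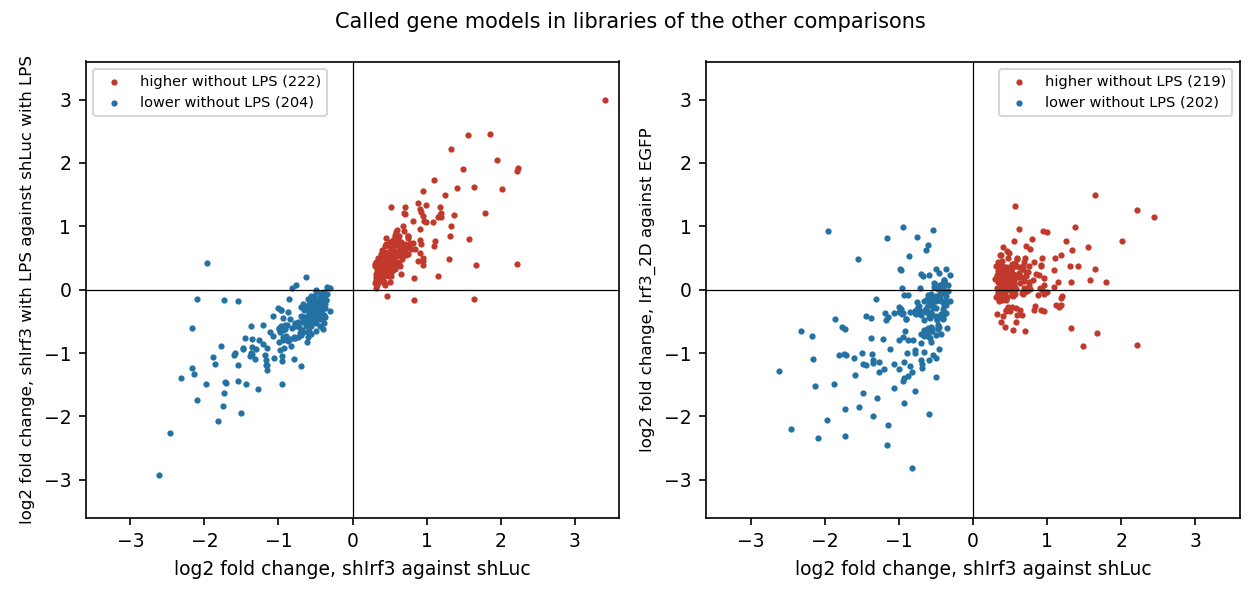
Log2 fold changes of the gene models that rose (red) or fell (blue) without LPS, plotted against their log2 fold changes under LPS (left) and in the overexpression arm (right). Under LPS 219 of 222 red points lie above 0 and 197 of 204 blue points below 0, and in the overexpression arm 153 of 219 and 168 of 202 do.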

How the data were processed

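The deposited values are raw counts per gene model, with no normalization. The submitters' processing notes name TopHat2 (version 2.0.14) and featureCounts (version 1.4.6) among the tools of the authors, and genome build mm9. How reads of overlapping or near-identical models were treated is not given in the sources used. Libraries came from 70 ng of ribosome-depleted total RNA and a kit that does not mark strand, per the labels' protocols. Positions and exon lengths (a unit other than counts) are those of the deposited table, per the file headers.

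Samples were grouped by title. The comparison was fitted with edgeR 4.0.16 in R 4.3.3 (glmQLFit robust, glmQLFTest, filterByExpr by group) on the 6 libraries compared. A fit with the LPS libraries, where replicates were tighter, would give too small a spread to shLuc, and the interaction, which needs all 4 groups, carries that limit. Library sizes and TMM factors used gene models outside chromosome M, because the chromosome M share differed between control libraries. Chromosome M gene models were then tested with those factors, and p-values were Benjamini-Hochberg adjusted over all gene models tested (threshold 0.05). The LPS and overexpression arms were fitted likewise, and the interaction over 12 libraries. Standard errors were obtained as the absolute log2 change over the square root of F, and log2 CPM used a prior count of 2. The biological coefficient of variation was 0.116 without LPS, 0.0551 under LPS and 0.171 in the overexpression arm.

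Each of the 6 replicate pairs differed by more than sampling noise (chi-square over its degrees of freedom 2.54 to 136.4, gene models of 20 counts or more per pair), and none was treated as 1 library deposited again. Same-numbered libraries did not deviate together (r = -0.006, 0.070 and 0.019 across gene models for numbers 1, 2 and 3), so the numbers were not used as pairs. The fit was run on 1 simulated data set per comparison, with known changes and the same spread in all libraries for a gene model. The wider spread of the shLuc libraries was thus not part of it. For the comparison without LPS, 14 of 167 calls (8.38%) fell on unchanged gene models, which is above the threshold. Small changes were recovered less often than large ones.

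The naming rule took, per direction, the 2 called gene models with the highest mean in the higher group among those changed at least 2-fold, with no overlap between groups and exons on 1 strand. The members, the rule and the lists were chosen with earlier results of these data known. Lists of gene symbols and cell type markers had been written for this comparison, but they need symbols, which no file used here pairs with the identifiers, and they gave no result. For the same reason no sequence is shown. Alternatives were DESeq2 1.42.0, limma-voom and limma-voom with sample quality weights (limma 3.58.1), RLE factors, library totals only, TMM with chromosome M, no filter on low counts, a minimum of 1 CPM in 3 libraries, a minimum fold of 2, the replicate block, 12 libraries in 1 fit, chromosome M left out, and each library left out in turn. For the interaction, only libraries without LPS were left out.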

Additional observations from a re-analysis of the deposited data

Results flagged for a closer look

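By the interaction test of edgeR over 12 libraries, 1 gene model was called as differing in the effect of the hairpin between cells without and with LPS, and that call ended in 9 of 15 alternatives. It has 6 exons on chromosome 2 (32240157 to 32243259), and its interaction log2 value was -1.80 (edgeR adjusted p = 0.0440). Without LPS it stood below 2 CPM in every library compared. The cause was not tested.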

How the results depend on the processing

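The direction of all 430 calls held in every fit where the gene model was tested, but their number did not. As their values did not overlap between groups, a change of direction was hardly possible in these fits. DESeq2 gave 399 higher and 357 lower, limma-voom with sample quality weights 1222 and 947, and 12 libraries in 1 fit 823 and 533, while a 2-fold minimum left 35 and 52. Leaving out 1 library gave from 14 to 938 higher and from 17 to 571 lower. With the replicate block there were 183 higher and 212 lower, and 336 of the 430 calls were kept. The other alternatives stayed within 1.5 times the reported counts. The sample quality weights of limma were 0.398 and 0.210 for shLuc replicates 1 and 2 and at least 1.38 for the other 4 libraries. The cause of the differences between tools was not tested. For the interaction, DESeq2 called 18 gene models, limma-voom with sample quality weights 49 and no low-count filter 3. There were 0 calls with limma-voom, TMM with chromosome M in the scaling, at least 1 CPM in 3 libraries and the replicate block. Leaving out 1 library without LPS gave from 0 to 15, and no library with LPS was left out for the interaction. The difference in the chromosome M share, -0.627 percentage points, ran from -2.89 to 2.75 when 1 library was left out and changed sign without shLuc replicate 1. The 336 gene models called in the same direction under LPS numbered from 287 to 371 in the alternatives, which were chosen after the data were seen, and the 168 that fell with knockdown and lay below 0 in the overexpression arm from 163 to 173 when any 1 library of that arm was left out. With 3 libraries a group, a 1.5-fold change can be missed.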
